A study of Mus musculus with 12 samples.

Results

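Transcripts of the proteasome subunits were examined in blood-forming stem and progenitor cells of mice with and without the transcription factor gene Nfat5. The members were all genes whose single symbol is Psma, Psmb, Psmc, Psmd or Psme followed by a number, without Psmd7, which gave 41 genes of the 19494 that the arrays name. Each was read by 1 probe set, and all 41 passed the filter on low values that left 14620 genes for testing. Psmb5 was not analysed here.

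Haematopoietic stem cells (HSC) and multipotent progenitors (MPP) had been sorted from bone marrow, and each mouse gave 1 array per population. Both come from the lineage-negative, Sca-1 positive, Kit positive (LSK) fraction, in which HSC are CD48- CD150+ and MPP are CD48+ CD150-. The groups were HSC from Nfat5 fl/fl Vav-Cre mice (KO), HSC from Nfat5 +/+ Vav-Cre mice (WT), MPP from the same KO mice and MPP from the same WT mice, with 3 arrays in each of the 4 groups. The KO mice are numbered 2, 11 and 70 and the WT mice 3, 12 and 64. All of them carried the Cre transgene, which the Vav promoter drives in blood-forming cells, and none had been treated; the labels state neither age nor sex nor strain. Values are log2 intensities, so a difference of 1 stands for a doubling.

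The proteasome degrades proteins that carry ubiquitin chains. Its barrel-shaped 20S core has outer alpha rings, which gate the entry, and inner beta rings, which hold the proteolytic sites. The 19S cap recognises ubiquitin, removes it, and unfolds the substrate with a ring of ATPases, while other activators can bind the core in place of the cap. Interferon induces replacement beta subunits that form the immunoproteasome, which supplies peptides for MHC class I and is abundant in blood cells. Haematopoietic stem cells are known for low protein synthesis and for sensitivity to disturbed protein turnover.

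The sorting markers and the deleted gene followed the labels. Slamf1, which encodes CD150, read 7.14 to 8.71 in HSC and 5.35 to 6.02 in MPP, and Cd48 read 5.34 to 6.02 in HSC and 8.0 to 9.06 in MPP. Nfat5 read 7.34 to 7.89 in KO and 8.27 to 8.99 in WT HSC, and 6.99 to 7.45 in KO and 7.82 to 8.28 in WT MPP. Where its probe set lies relative to the deleted exons is not known here. The HSC array of KO mouse 2 deviated most from its group, with an SD of deviations over all genes of 0.438, against 0.276 to 0.378 on the other arrays. Of the 41 subunits, 14 had their lowest value of all 12 arrays on the HSC array of WT mouse 64. The members' median is given with and without these arrays where they enter, for KO against WT in HSC, HSC against MPP and the interaction. For KO against WT in HSC, so are the constitutive and inducible beta genes, Psmd5, Psme4, Psmf1 and Psmg1. Other values rest on all arrays unless stated.

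Mean levels of the subunits ran from 5.57 to 11.84, but levels of different probe sets cannot be compared with each other. As a set they read high on these arrays, with a median of 8.87 against 6.48 over all genes tested. Shares over all genes below thus come from a set with mostly lower values. The SD within groups, pooled over the 4 groups, ran from 0.0713 to 1.09 and had a median of 0.327, against 0.286 over all genes tested. It was under 0.15 for Psma3, Psma5, Psma6, Psma7, Psmc1, Psmc5 and Psme1 and over 0.6 for Psma8, Psmd13, Psme3 and Psme4, so that a difference in the first 7 is known far more closely than in the last 4. Half-widths of the 95% interval of a difference between groups accordingly ran from 0.264 for Psma5 to 1.71 for Psme4.

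Most subunit transcripts had lower values in HSC than in MPP. In KO mice 29 of 41 members had a log2 difference below 0, where 42.9% of all genes tested did, and the members' median was -0.10 against 0.05 for all genes. In WT mice 35 of 41 were below 0, where 45.8% of all genes were, with a median of -0.44 against 0.03. The share of all genes depended on the setting. With the lowest 50% of genes by mean left out, 29 of 39 members were below 0 in KO mice (48.7% of all genes). In WT mice 35 of 39 then were (53.1%), with a median of -0.47 against -0.03 for all genes. With each array centred on its median, the counts were 32 of 41 in KO mice (51.1%) and 37 of 41 in WT mice (52.2%). Single members seldom passed the test. At an adjusted p under 0.05 (limma, Benjamini-Hochberg over the 14620 genes tested) 0 of 41 passed in KO mice, where 1.26% of all genes did, and 1 of 41 passed in WT mice, where 2.07% of all genes did and 1.32% did as lower in HSC. At an unadjusted p under 0.05 there were 5 members in KO mice, all lower in HSC (6.31% of all genes were lower at that p). In WT mice there were 7 lower (7.75% of all genes) and 1 higher (6.36%). In RNA of whole populations, fewer cells with a transcript and less of it per cell cannot be told apart.

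**Figure D1:**
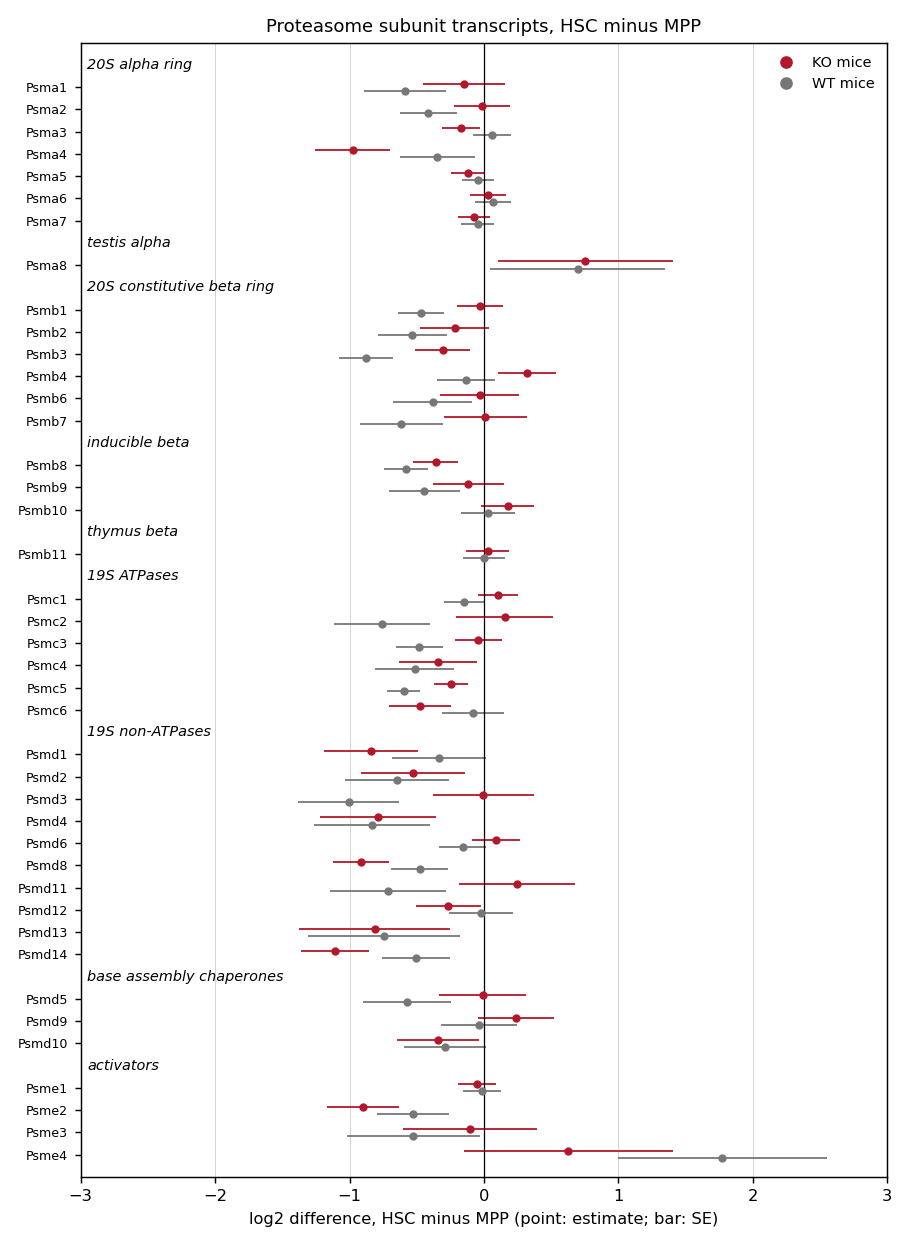
Log2 difference in level between HSC and MPP (x axis) for each of the 41 subunits (y axis, by role), in KO mice (red, upper of each pair) and WT mice (grey, lower); points are estimates from the fit over 12 arrays and bars are SE. Most points lie left of 0, 29 of 41 in KO and 35 of 41 in WT mice, and Psme4 in WT mice lies far to the right.

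Psmc5 was the member that passed, in WT mice. It encodes an ATPase of the 19S base, part of the ring that threads substrates into the core. Its level in KO mice was 9.76, 9.61 and 9.57 in HSC against 9.89, 9.92 and 9.85 in MPP. In WT mice it was 9.61, 9.53 and 9.36 in HSC against 10.16, 10.03 and 10.09 in MPP. The groups did not overlap in either genotype, and the HSC array was below the MPP array of the same animal in all 6 mice. The log2 difference was -0.25 (SE 0.13) in KO mice and -0.60 (SE 0.13, 95% interval -0.87 to -0.32, adjusted p = 0.0388) in WT mice, where HSC held 66.1% of the MPP level. With the mouse as a block the adjusted p of Psmc5 in WT mice was 0.123. Leaving out any 1 of the 6 mice gave 0.0588 to 0.286, so the call was lost each time. Leaving out a KO mouse cannot change the difference in WT mice. Without single WT mice that difference stayed between -0.65 and -0.53.

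The interval upstream of Psmc5 is shown because this was the member that passed, and those of Psmb3 and Psmb8 because they followed it in the order of p and hold the motif letters searched. The letters come from RefSeq (GRCm38.p6), plus strand, and end at the base before the annotated start. Capitals mark the matches.
Psmc5, chr11:106256085-106256184: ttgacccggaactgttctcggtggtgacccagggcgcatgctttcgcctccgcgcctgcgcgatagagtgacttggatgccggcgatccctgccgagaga
Psmb3, chr11:97703184-97703433: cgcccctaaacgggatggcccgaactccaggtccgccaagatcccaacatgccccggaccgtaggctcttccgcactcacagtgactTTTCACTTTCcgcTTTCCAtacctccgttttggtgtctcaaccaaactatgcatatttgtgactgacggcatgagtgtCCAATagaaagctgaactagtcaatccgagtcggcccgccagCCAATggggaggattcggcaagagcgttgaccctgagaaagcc
Psmb8, chr17:34197945-34198194: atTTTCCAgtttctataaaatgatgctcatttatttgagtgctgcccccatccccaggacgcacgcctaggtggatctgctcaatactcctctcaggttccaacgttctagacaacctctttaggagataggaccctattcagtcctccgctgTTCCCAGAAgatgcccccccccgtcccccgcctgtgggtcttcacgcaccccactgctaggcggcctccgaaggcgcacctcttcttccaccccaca

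The stretch shown for Psmc5 is 100 bases, because the neighbouring gene Ftsj3 covers the rest of its window, and none of the motifs matched. Upstream of Psmb3, TTTCACTTTC, a match to the letters of paired IRF half-sites, lies 163 to 154 bases before the start. TTTCCA, the core letters bound by Rel and NFAT family factors on the other strand, lies 150 to 145 bases before it, and a CCAAT box at 85 to 81 and again at 43 to 39. Upstream of Psmb8, TTCCCAGAA, which has the palindromic form of a STAT site, lies 97 to 89 bases before the start and TTTCCA 248 to 243.

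Such windows of 250 bases were used for 35 of the 41 members and were searched on both strands for 5 motifs. A member counted if any window of that gene held the motif, whereas the share of all counts single windows. Member windows on chromosome 18, where Psma8 lies, were left out, while the windows of all genes kept that chromosome. No window of Psmb1, Psmb2, Psmb7, Psmc3 or Psmd3 was used either. A pair of GAAA with any 2 bases between them, the IRF pair, occurred in 3 of the 35 (8.57%, Psmb3, Psmd4 and Psmd9) and in 2.98% of all 32851 windows. TGACNNNGC, the core of the antioxidant response element that Nfe2l1 and Nfe2l2 bind, occurred in 4 (11.4%, Psmb6, Psmc6, Psmd9 and Psmd12) and in 10.2% of all. TTCNNNGAA occurred in 1 (2.86%) and in 7.02% of all, CCAAT in 14 (40.0%) and 33.8%, and TGGAAA in 8 (22.9%) and 18.6%. The TGGAAA matches, which can fall within other motifs, lay at Psmb3, Psmb6, Psmb8, Psmb9, Psmd4, Psmd6, Psmd8 and Psmd9. Matched letters do not show that a factor binds there.

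The 7 genes of the alpha ring had a median HSC minus MPP difference of -0.12 in KO mice (6 below 0) and -0.05 in WT mice (5 below 0). Psma5 gives the plainest case, with 11.80, 11.73 and 11.78 in HSC and 11.86, 12.00 and 11.82 in MPP of KO mice, and with 11.83, 11.79 and 11.87 in HSC and 11.80, 11.83 and 11.98 in MPP of WT mice. Its arrays lay close together in all 4 groups, yet those of KO HSC and KO MPP did not overlap, by a narrow gap. Psma3, Psma6 and Psma7 stood at -0.17, 0.03 and -0.07 in KO mice and at 0.06, 0.07 and -0.05 in WT mice. Psma4, the third member by p in KO mice, lay further out, with 8.16, 7.90 and 8.93 in HSC against 9.51, 9.24 and 9.17 in MPP. It did not overlap there (log2 difference -0.98, SE 0.28, adjusted p = 0.145), and in WT mice its groups did. Psma1 and Psma2 stood at -0.59 and -0.41 in WT mice and at -0.15 and -0.01 in KO mice.

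All 6 constitutive beta genes measured were below 0 in WT mice, with a median of -0.50, against 4 of 6 and a median of -0.03 in KO mice. Psmb3, a structural beta subunit, had 8.64, 8.55 and 9.20 in HSC and 9.39, 9.08 and 8.84 in MPP of KO mice, which overlap. In WT mice it had 8.30, 8.28 and 7.98 in HSC and 9.12, 9.09 and 8.98 in MPP, which do not. The difference was -0.31 (SE 0.20) in KO mice and -0.88 (SE 0.20, adjusted p = 0.0576) in WT mice, the value just outside the threshold. Psmb1, also structural, stood at -0.47 (SE 0.17, adjusted p = 0.235) in WT mice without overlap and at -0.03 in KO mice. Psmb7, which carries the trypsin-like site, stood at -0.62 in WT mice without overlap and at 0.01 in KO mice. Psmb6, which carries the caspase-like site, overlapped in both, at -0.03 in KO mice and -0.38 in WT mice. Psmb2 stood at -0.22 in KO and -0.53 in WT mice, and Psmb4 at 0.32 in KO and -0.14 in WT mice.

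The 3 inducible beta genes had unequal values. Psmb8, which replaces the chymotrypsin-like subunit in the immunoproteasome, had 8.92, 8.78 and 8.93 in HSC against 9.20, 9.37 and 9.13 in MPP of KO mice. In WT mice it had 8.81, 9.02 and 8.59 in HSC against 9.65, 9.18 and 9.34 in MPP. The groups did not overlap in either genotype, and HSC were lower within each of the 6 mice. The difference was -0.36 (SE 0.17, adjusted p = 0.415) in KO and -0.58 (SE 0.17, adjusted p = 0.128) in WT mice. Psmb9, the counterpart of Psmb6, stood at -0.12 in KO and -0.44 in WT mice with overlapping groups, and Psmb10, the counterpart of Psmb7, at 0.18 in KO and 0.03 in WT mice. Psmb9 and Psmb8 are neighbours on chromosome 17, with the peptide transporter gene Tap1 between them.

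In the 19S cap most members were below 0 in both genotypes. Of the 6 ATPases 4 were below 0 in KO mice (median -0.15) and 6 in WT mice (median -0.50), where Psmc2 and Psmc3 joined Psmc5 in not overlapping. Psmc2 stood at 0.15 (SE 0.36) in KO and -0.76 in WT mice, and Psmc3 at -0.04 in KO and -0.48 (SE 0.17, adjusted p = 0.235) in WT mice. Of the 10 non-ATPase genes 8 were below 0 in KO mice (median -0.66) and 10 in WT mice (median -0.58). The remaining ATPases Psmc1, Psmc4 and Psmc6 stood at 0.10, -0.34 and -0.47 in KO mice and at -0.15, -0.52 and -0.08 in WT mice.

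Psmd14, the deubiquitinase of the lid, and Psmd8, a lid subunit, had the lowest p in KO mice. Psmd14 read 6.75, 6.68 and 7.29 in HSC against 8.17, 7.93 and 7.95 in MPP of KO mice, a difference of -1.11 (SE 0.25, adjusted p = 0.0668). In WT mice it read 7.62, 7.16 and 7.20 in HSC against 7.29, 8.17 and 8.03 in MPP, where the MPP value of mouse 3 lay among the HSC. Psmd8 read 7.89, 7.87 and 7.84 in HSC against 8.89, 8.63 and 8.82 in MPP of KO mice (difference -0.92, SE 0.21, adjusted p = 0.0713). In WT mice it read 7.77, 8.20 and 7.96 in HSC against 8.68, 7.94 and 8.74 in MPP, where the MPP value of mouse 12 again overlapped (difference -0.48). Neither passed in the fit over all arrays. Without mouse 3 the adjusted p of Psmd14 was 0.0369, and without mouse 12 that of Psmd8 was 0.0204. Both are WT mice, so the differences in KO mice stayed at -1.11 and -0.92. What changed was the estimate of the spread, which all groups share, and the adjustment. Over the 6 mice left out in turn, the adjusted p ran from 0.0369 to 0.358 for Psmd14 and from 0.0204 to 0.309 for Psmd8, both highest without mouse 2.

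Psmd4, a ubiquitin receptor, was lower in HSC without overlap in both genotypes (-0.79 in KO mice and -0.83 in WT mice, SE 0.43 each) and within all 6 mice. Psmd3, a lid subunit, had the most negative difference in WT mice at -1.01 (SE 0.37, adjusted p = 0.25), with 8.48, 7.21 and 6.77 in HSC against 8.50, 8.64 and 8.33 in MPP. Its difference in KO mice was close to 0, with 7.62, 7.88 and 7.56 in HSC against 7.47, 8.20 and 7.41 in MPP. Psmd1 and Psmd2, the scaffolds of the base, stood at -0.84 and -0.53 in KO mice and at -0.33 and -0.65 in WT mice. The lid subunits Psmd6, Psmd11, Psmd12 and Psmd13 stood at 0.09, 0.25, -0.27 and -0.81 in KO mice and at -0.16, -0.72, -0.02 and -0.74 in WT mice, with wide errors for Psmd11 (SE 0.43) and Psmd13 (SE 0.56). The base assembly chaperones Psmd5, Psmd9 and Psmd10, which leave before the cap is complete, had medians of -0.01 in KO and -0.29 in WT mice. They stood at -0.01, 0.24 and -0.35 in KO mice and at -0.57, -0.04 and -0.29 in WT mice.

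**Figure D2:**
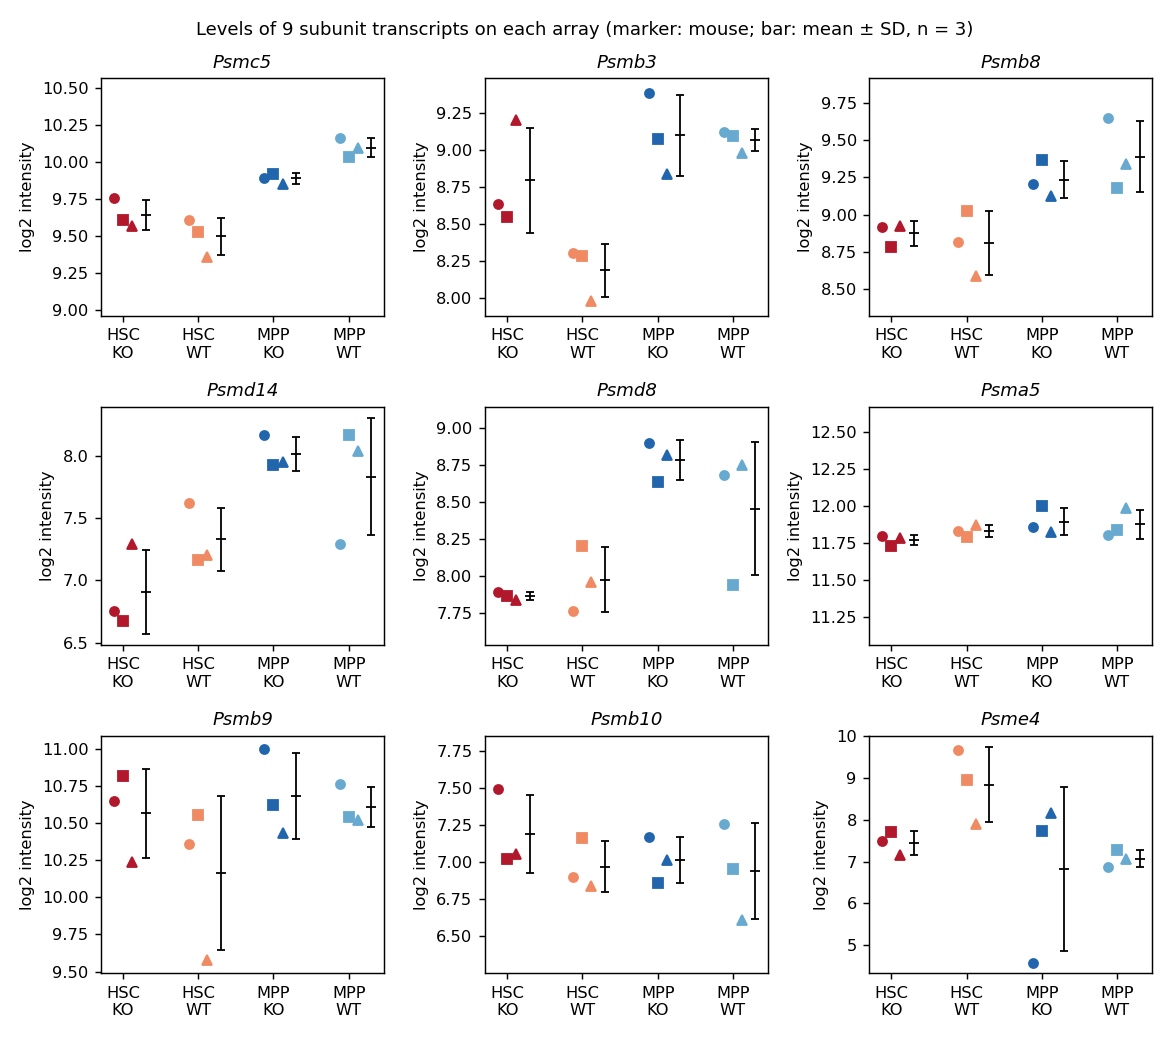
Log2 intensity (y axis) of 9 subunits on each of the 12 arrays, by group (x axis); circles are KO mouse 2 or WT mouse 3, squares KO mouse 11 or WT mouse 12, triangles KO mouse 70 or WT mouse 64, and black bars are mean ± SD (n = 3). Psmc5 and Psmb8 are lower in HSC than in MPP without overlap in both genotypes, Psma5 stays within 11.73 to 12.00, and the y ranges differ between panels.

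The activators had values on both sides of 0. Psme2, which with Psme1 forms the interferon-induced 11S ring, read 9.11, 8.47 and 7.92 in HSC against 9.17, 9.38 and 9.65 in MPP of KO mice (difference -0.90, SE 0.27, adjusted p = 0.165). In WT mice it read 8.63, 8.67 and 8.24 in HSC against 9.13, 8.89 and 9.09 in MPP (difference -0.53), again without overlap. Psme2 has a close copy, Psme2b, which may share its probes, so its value is uncertain on this account; the probe set of Psme2b stood at -0.68 (SE 0.22) in WT mice. Without the HSC array of KO mouse 2, Psme2 passed in KO mice (-1.20, adjusted p = 0.0482). With whole mice left out in turn its difference there ran from -1.32 to -0.48 (adjusted p 0.0739 to 0.526), nearest 0 without mouse 70. Its partner Psme1, with Emc9 between them on chromosome 14, stood at -0.05 in KO and -0.01 in WT mice. Psme3, which forms a nuclear 11S ring, stood at -0.10 in KO and -0.53 in WT mice (SE 0.50 each).

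Psme4, the large nuclear activator also called PA200, had the highest HSC minus MPP difference of all members in WT mice. It read 7.50, 7.71 and 7.15 in HSC against 4.58, 7.73 and 8.16 in MPP of KO mice, and 9.68, 8.96 and 7.90 in HSC against 6.87, 7.29 and 7.05 in MPP of WT mice. The WT groups did not overlap, yet its spread was the widest of all members and the difference of 1.77 (SE 0.77) had an adjusted p of 0.341. Psma8, a testis form of an alpha subunit, had the highest difference in KO mice at 0.75 (SE 0.65) and 0.70 in WT mice, with values between 4.45 and 7.05 that scattered within every group. Leaving out single mice moved its difference in KO mice between -0.17 (without mouse 2) and 1.95 (without mouse 70). Psmb11, the thymus form, read 5.29 to 5.83 on the 12 arrays.

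Counted over both genotypes, 28 of 41 members were below 0 in both and 5 were above 0 in both. In KO mice 10 members were lower in HSC without overlap of the groups (7.33% of all genes) and 0 were higher (9.77%). In WT mice 10 were lower without overlap (10.3% of all genes) and 1, Psme4, was higher (11%). Psmb8, Psmc5, Psmd4 and Psme2 were in both sets of 10. Within single animals, members below 0 numbered 26, 28 and 27 of 41 in KO mice 2, 11 and 70, and 27, 28 and 35 of 41 in WT mice 3, 12 and 64. The share of all genes below 0 was 43.7%, 45.6% and 47.4% in those KO mice and 48.6%, 47.5% and 46.0% in those WT mice. HSC were lower within 6 of 6 mice for 5 members, namely Psmb2, Psmb8, Psmc5, Psmd4 and Psme2 (6.19% of all genes), and within 5 or 6 mice for 20 members (17.1%). They were higher within 5 or 6 mice for 2 members, Psmb4 and Psmb10 (24.1%). The contrast in WT mice leaned on mouse 64, whose own median over the members was -0.58, against -0.20 and -0.17 in mice 3 and 12; without mouse 64 the median of the comparison was -0.29 and 32 of 41 members were below 0. Without the HSC array of KO mouse 2 the median in KO mice was -0.14, with 27 of 41 below 0.

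**Figure D3:**
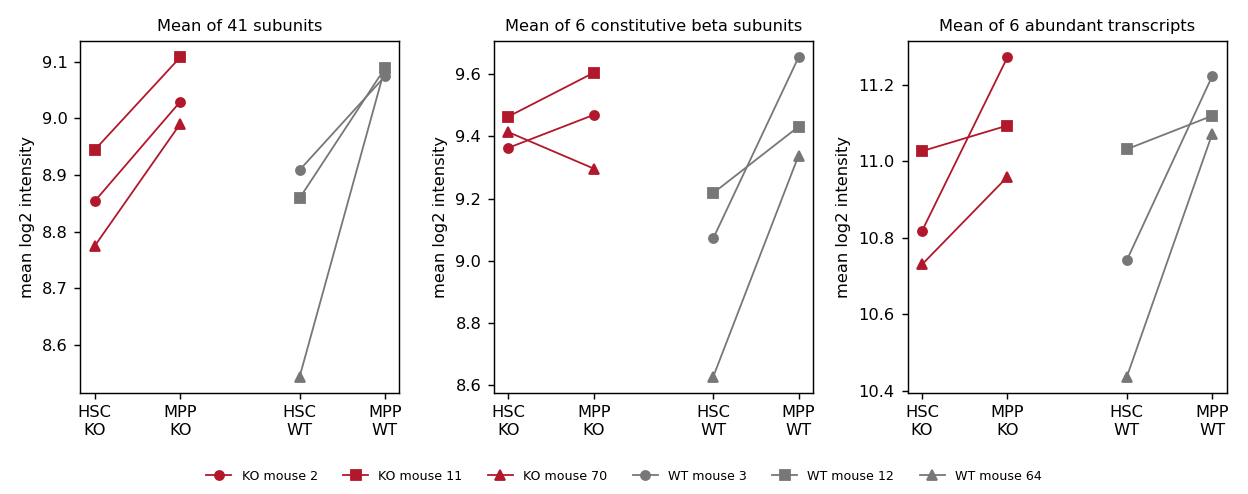
Mean log2 intensity (y axis) of the 41 subunits, the 6 constitutive beta subunits and 6 abundant transcripts on each array, by group (x axis); lines join the HSC and MPP arrays of a mouse, KO in red and WT in grey. The subunit mean is lower in HSC than in MPP within each of the 6 mice, lowest on the HSC array of WT mouse 64, and the abundant transcripts are lower in HSC within each mouse too.

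Other features of the arrays moved with this comparison. The mean of the 41 members was 8.85, 8.94 and 8.78 in KO HSC and 8.91, 8.86 and 8.54 in WT HSC, and 9.03, 9.11 and 8.99 in KO MPP and 9.07, 9.09 and 9.09 in WT MPP. The mean of 6 abundant transcripts, listed as a sign of RNA quality, was 10.73 to 11.03 in KO HSC, 10.44 to 11.03 in WT HSC, 10.96 to 11.27 in KO MPP and 11.07 to 11.22 in WT MPP. The 90th percentile of the arrays was 8.46 to 8.62 in HSC and 8.61 to 8.70 in MPP. After a second quantile normalization, which removes that difference in percentiles, the members' median was -0.04 in KO and -0.33 in WT mice. Members below 0 then numbered 24 of 41 in KO mice (45.4% of all genes) and 32 of 41 in WT mice (45.6%). The part of the abundant transcripts in the result was not tested.

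Markers of other cells that a sort can hold were measured as well. The mean of the neutrophil list (9 genes, 8 of them tested) was 5.52 to 8.05 in KO HSC, 5.83 to 8.20 in WT HSC, 5.62 to 6.74 in KO MPP and 4.56 to 6.98 in WT MPP. In WT mice 7 of the 8 were above 0 for HSC minus MPP and 0 passed. The B cell list (7 genes, 6 tested, 2 lower in HSC of WT mice at the adjusted threshold) averaged 5.65 to 5.92 in HSC and 6.43 to 7.07 in MPP. The list of T and NK cells (8 genes, 4 tested) averaged 5.05 to 5.16 in KO HSC and 4.84 to 4.95 in WT HSC. It averaged 5.10 to 5.36 in KO MPP and 5.20 to 5.39 in WT MPP. The list of monocytes and macrophages averaged 5.36 to 5.96 in KO HSC and 5.26 to 5.97 in WT HSC. In MPP it averaged 6.33 to 6.49 in KO and 5.93 to 6.50 in WT mice. The list of erythroid cells averaged 7.64 to 7.90 in KO HSC and 7.67 to 7.95 in WT HSC. In MPP it averaged 7.44 to 7.85 in KO and 7.40 to 7.60 in WT mice. In WT mice 1 of 4, 1 of 6 and 1 of 4 tested genes of these lists passed for HSC against MPP, the first 2 lower and the last higher in HSC. Of the defining markers Ltf, of neutrophil granules, read 5.10 to 7.27, Cd3e, of T cells, 5.03 to 5.71, and Csf1r, of monocytes, 5.39 to 6.76. The part of such cells in the subunit values was not tested.

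The loss of Nfat5 was compared within each population. In HSC 0 of 41 subunits passed at the adjusted threshold with limma, and 0% of all genes did. The constitutive beta ring had 6 of 6 members above 0 and a median log2 difference of 0.42 (KO minus WT). Over all 41 members 27 were above 0, where 53.4% of all genes were, and the median was 0.13 against 0.02 for all genes. At an unadjusted p under 0.05 there were 4 members, all higher in KO HSC (3.47% of all genes were higher at that p), namely Psmb3, Psmd5, Psmb1 and Psmb6. These values share the WT HSC arrays with the comparison of WT HSC against WT MPP, so the one cannot be set beside the other as separate evidence.

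**Figure D4:**
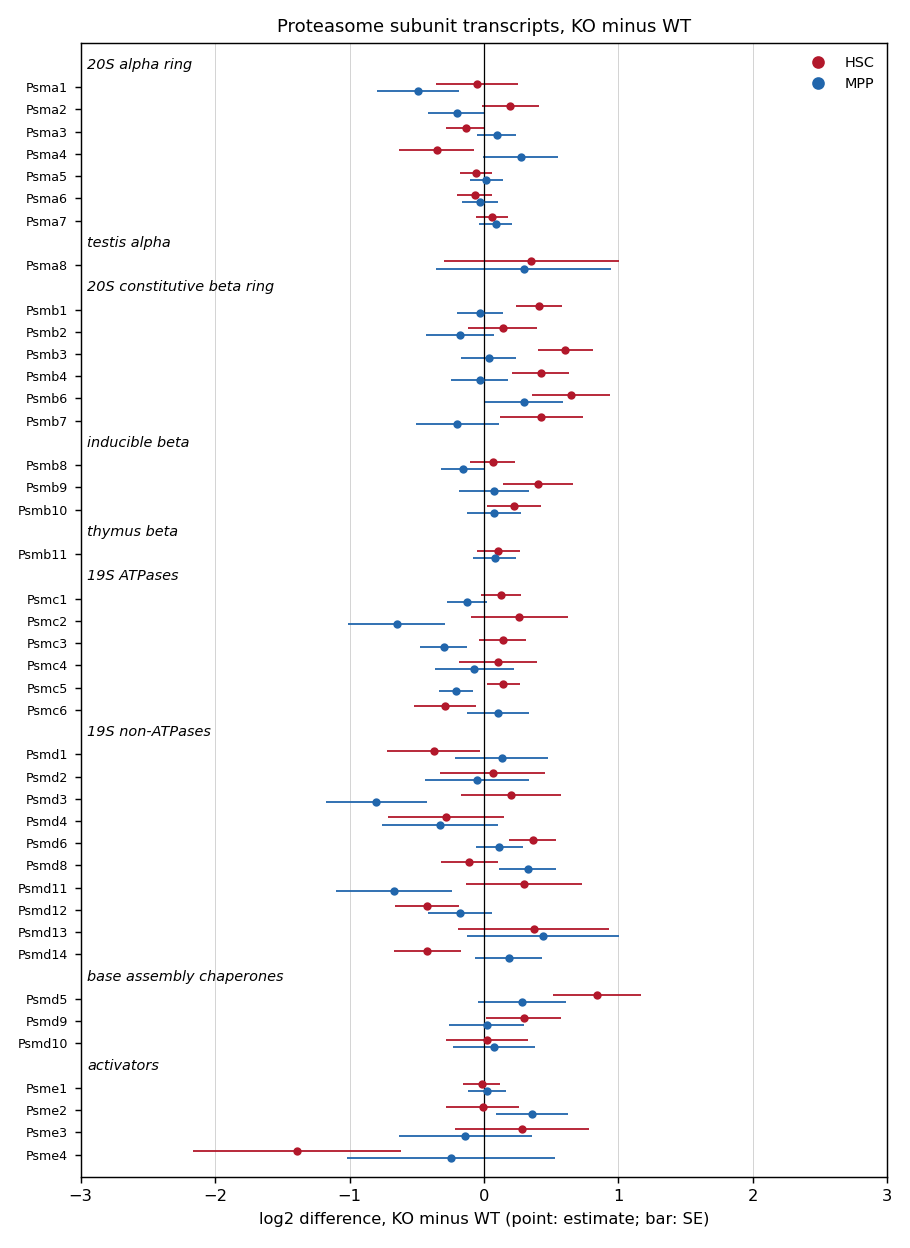
Log2 difference in level between KO and WT (x axis) for each of the 41 subunits (y axis, by role), in HSC (red, upper of each pair) and MPP (blue, lower); points are estimates from the fit over 12 arrays and bars are SE. All 6 constitutive beta subunits lie right of 0 in HSC, and no member passed in either population.

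Psmb3 read 8.64, 8.55 and 9.20 in KO HSC against 8.30, 8.28 and 7.98 in WT HSC. The groups did not overlap, and the difference was 0.61 (SE 0.20, 152% of the WT level, unadjusted p = 0.0128, adjusted p = 0.691). Psmb6 read 8.23, 8.91 and 8.09 in KO HSC against 7.58, 8.26 and 7.45 in WT HSC, which overlap (0.65, SE 0.29, adjusted p = 0.790). Psmb1 read 10.003, 10.38 and 10.36 in KO HSC against 9.73, 10.15 and 9.65 in WT HSC, which also overlap (0.41, SE 0.17, adjusted p = 0.790). Psmb4, another structural beta subunit, read 10.64, 10.59 and 10.40 in KO HSC against 10.39, 10.36 and 9.62 in WT HSC, a narrow gap with no overlap. Psmb7 stood at 0.43 (SE 0.31) and Psmb2 at 0.14. The mean of the 6 genes was 9.41 ± 0.05 in KO HSC and 8.97 ± 0.31 in WT HSC (SD, n = 3 each). Without WT mouse 64 the median of the 6 was 0.24, and without the HSC array of KO mouse 2 it was 0.45. Of the single genes, Psmb3, Psmb1, Psmb6, Psmb4, Psmb7 and Psmb2 stood at 0.50, 0.31, 0.49, 0.17, 0.11 and 0.03 without mouse 64, and at 0.69, 0.53, 0.74, 0.37, 0.14 and 0.33 without the array of KO mouse 2. Over all 41 members the median without mouse 64 was -0.04, with 20 above and 21 below 0, and without the array of KO mouse 2 it was 0.09, with 26 above 0.

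Markers of the sorted cells were read in the same HSC groups. Flt3, a receptor that is higher in MPP, read 5.94, 5.09 and 6.88 in KO HSC against 5.03, 5.39 and 4.95 in WT HSC (adjusted p = 0.790). Cd34, also higher in MPP, read 9.42, 9.59 and 10.12 in KO HSC against 8.69, 8.98 and 9.58 in WT HSC (adjusted p = 0.764). Both overlapped, and they were the 2 of 8 listed markers of the sorted cells with an unadjusted p under 0.05, while 0 of the 8 passed. Both were higher in KO HSC, as 3.47% of all genes were at that p. Cd48, also higher in MPP, went the other way. It read 5.40, 5.40 and 5.75 in KO HSC against 5.86, 5.34 and 6.02 in WT HSC. The list of sorted cells had 6 of 8 genes above 0 for KO minus WT and 2 below, with a median of 0.28. Of the 8 neutrophil genes 7 were below 0 for KO minus WT in HSC, with a median of -1.01 and 0 passed. Of the T and NK genes 4 of 4 were above 0 (median 0.18), and of the erythroid genes 4 of 4 were below 0 (median -0.14). Of the B cell genes and of the monocyte genes 3 of 6 each were below 0, with medians of -0.02 and -0.08. In these lists 0 passed. With an unadjusted p under 0.05 were 1 T and NK gene and 2 monocyte genes, where 919 of 14620 genes were. Of the 6 abundant transcripts 4 were below 0, with a median of -0.02. The part of these markers in the subunit values was not tested.

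The remaining roles had medians on both sides of 0 in HSC. The alpha ring had a median of -0.06, the ATPases 0.13 and the non-ATPases -0.02, with 2 of 7, 5 of 6 and 5 of 10 members above 0. The inducible subunits were above 0 without passing: Psmb8 by 0.07 (SE 0.17), Psmb9 by 0.40 (SE 0.26) and Psmb10 by 0.22 (SE 0.20), with overlapping groups in each. Without mouse 64 they stood at -0.04, 0.11 and 0.16, and without the array of KO mouse 2 at 0.04, 0.36 and 0.07. Psmd5, the chaperone that holds part of the base before assembly, had the highest difference of all members at 0.84 (SE 0.33, adjusted p = 0.764). It read 8.56, 7.83 and 7.67 in KO HSC against 6.51, 7.81 and 7.20 in WT HSC, so that the WT value of mouse 12 overlapped, and the difference was 0.85 without mouse 64 and 0.57 without the array of KO mouse 2. Psme4 had the lowest, at -1.39 (SE 0.77, adjusted p = 0.867), and its 7.50, 7.71 and 7.15 in KO HSC did not overlap the 9.68, 8.96 and 7.90 in WT HSC. Its difference was -1.87 without mouse 64 and -1.41 without the array of KO mouse 2. Without overlap, then, Psmb3 and Psmb4 were higher (5.15% of all genes) and Psme4 was lower (3.72%).

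In MPP the subunits were centred on 0. Of 41 members 21 were above 0, where 50.5% of all genes were, and the median was 0.02 against 0.00 for all genes. With limma 0 passed at the adjusted threshold (0% of all genes), and 0 had an unadjusted p under 0.05 (3.19% of all genes). The lowest p belonged to Psmd3, which read 7.47, 8.20 and 7.41 in KO MPP against 8.50, 8.64 and 8.33 in WT MPP without overlap (difference -0.80, SE 0.37, unadjusted p = 0.0564). The ATPases Psmc2, Psmc3 and Psmc5 followed, at -0.65 (SE 0.36), -0.30 (SE 0.17) and -0.21 (SE 0.13), and 5 of 6 ATPases were below 0 with a median of -0.17. Psmc5 read 9.89, 9.92 and 9.85 in KO MPP against 10.16, 10.03 and 10.09 in WT MPP, which do not overlap.

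The highest difference in MPP was that of Psmd13, a lid subunit, at 0.44 (SE 0.56). The constitutive beta ring had 2 of 6 members above 0 and a median of -0.03, with Psmb6 at 0.30 and Psmb7 at -0.20. The inducible Psmb8, Psmb9 and Psmb10 stood at -0.16, 0.07 and 0.07. Lower without overlap in KO MPP were Psma1, Psma2, Psmc5 and Psmd3 (4.66% of all genes), and higher without overlap was Psme2 (4.82%). The 95% interval of the genotype difference lay within 1 log2 unit of 0 for 28 of 41 members in HSC and for 31 in MPP, and within 0.5 for 9 in HSC and 10 in MPP. Changes larger than those bounds lie outside the intervals of these members only.

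**Figure D5:**
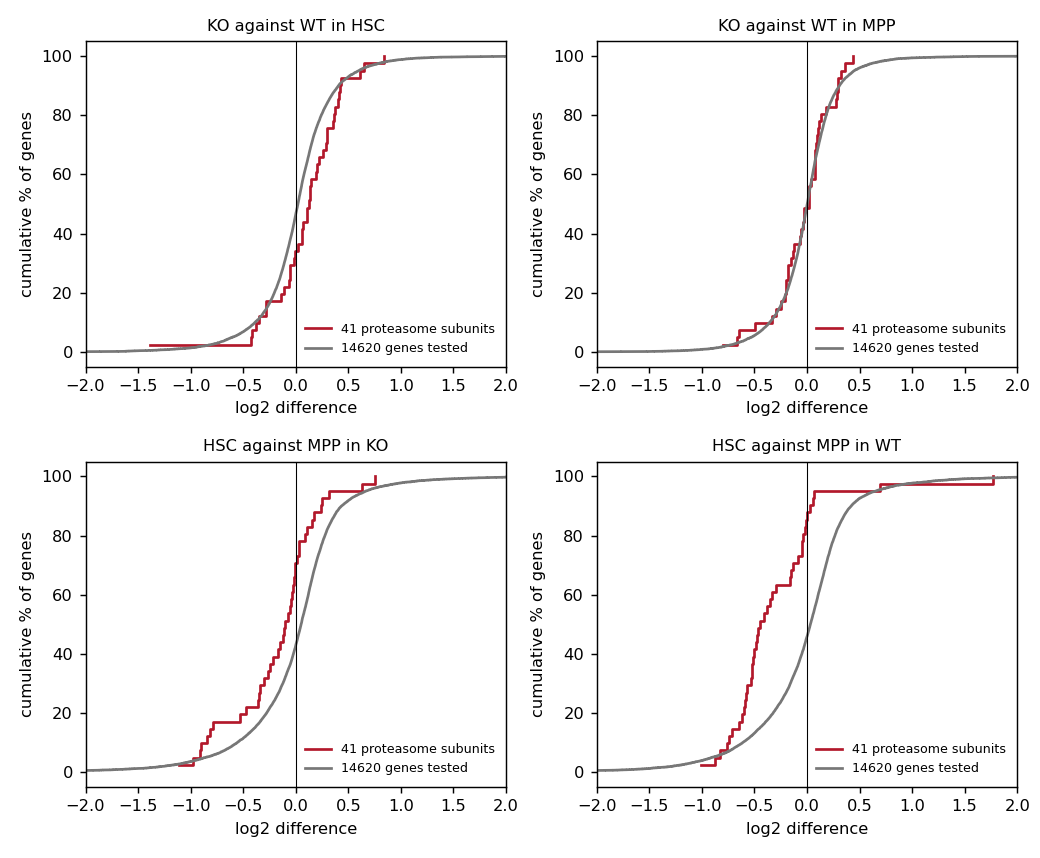
Cumulative share of genes (y axis, percent) against log2 difference (x axis) for the 41 subunits (red) and the 14620 genes tested (grey), in the 4 comparisons; the x axis ends at -2 and 2. The members' curve lies left of that of all genes for HSC against MPP, more so in WT mice (median -0.44) than in KO mice (median -0.10), and near it for KO against WT in MPP.

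An interaction term asked if the effect of genotype was unequal in the 2 populations, where a positive value means a higher KO minus WT difference in HSC. With limma 0 of 41 members passed (0% of all genes), and 0 had an unadjusted p under 0.05 (4.5% of all genes). The median was 0.17 against 0.01 for all genes, and 26 members were above 0, where 51.8% of all genes were. Without mouse 64 the median was 0.10, and without the HSC array of KO mouse 2 it was 0.20. All 6 constitutive beta genes were above 0 (median 0.45), as were 5 of 6 ATPases (median 0.30). The lowest p were those of Psmc5 (0.35, SE 0.18, unadjusted p = 0.0729), Psmb3 (0.57, SE 0.29), Psmd3 (1.003, SE 0.53) and Psmb1 (0.44, SE 0.24), each with an adjusted p of 1. The lowest value was that of Psme4 at -1.15 (SE 1.10). Psmb6, Psmb7, Psmb8, Psmb9 and Psmb10 stood at 0.35, 0.63, 0.22, 0.33 and 0.15. The larger shift between HSC and MPP in WT mice was therefore not shown to differ from that in KO mice for any member.

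Averaged over the populations of each mouse, 3 KO against 3 WT mice, 0 members passed with limma (0% of all genes) and 1 had an unadjusted p under 0.05 (4.45% of all genes). This was Psmb3 at 0.32 (SE 0.13, unadjusted p = 0.0420). Psma8, Psmd5 and Psmb6 followed at 0.32 (SE 0.14), 0.56 (SE 0.26) and 0.47 (SE 0.23), and Psme4 was lowest at -0.82 (SE 0.47). Psmb7, Psmb8, Psmb9 and Psmb10 stood at 0.11, -0.04, 0.24 and 0.15. The median of all members was 0.00, against 0.01 for all genes.

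Genes that act with the subunits were read from lists. The chaperones that assemble the core (Pomp, Psmg1, Psmg2, Psmg3 and Psmg4) and the inhibitor Psmf1 were all 6 above 0 for KO minus WT in HSC, with a median of 0.57. With limma 0 of them passed, and 4 had an unadjusted p under 0.05, all higher in KO HSC (3.47% of all genes were higher at that p). In fits added after the data were seen, the median of the 6 was 0.52 without mouse 64, with 0 at that p, and 0.68 without the HSC array of KO mouse 2, with 2 at that p. Psmf1 read 8.25, 8.10 and 8.18 in KO HSC against 7.50, 7.74 and 6.85 in WT HSC (0.81, SE 0.28, unadjusted p = 0.0140). Psmg1 read 8.58, 8.98 and 9.05 in KO HSC against 8.49, 8.24 and 8.28 in WT HSC (0.54, SE 0.21). Neither pair of groups overlapped. Without mouse 64 Psmf1 stood at 0.55 and Psmg1 at 0.51. Without the HSC array of KO mouse 2 they stood at 0.77 and 0.68. In MPP the median of the 6 was 0.00. For HSC minus MPP it was 0.25 in KO mice and -0.44 in WT mice, where 6 of 6 were below 0, and the mean of the list was 7.98 ± 0.07 in KO HSC, 7.33 ± 0.30 in WT HSC, 7.86 ± 0.14 in KO MPP and 7.79 ± 0.15 in WT MPP (SD, n = 3 each).

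In the other lists 0 members passed in any of these comparisons. The associated subunits and deubiquitinases of the cap (4 tested) had KO minus WT medians of 0.13 in HSC and 0.08 in MPP, with Usp14, which trims ubiquitin chains, at 1.68 (SE 0.71) in HSC. Their HSC minus MPP medians were 0.00 in KO and -0.08 in WT mice. The shuttle factors and the unfoldase that deliver substrates (7 tested) had medians of -0.35 in KO and -0.42 in WT mice for HSC minus MPP, and of 0.01 in HSC and 0.07 in MPP for KO minus WT. The regulators of subunit genes (6 tested, among them Nfe2l1 and Nfe2l2) had medians of 0.13 in KO and -0.15 in WT mice for HSC minus MPP, and of 0.14 in HSC and -0.06 in MPP for KO minus WT. The MHC class I presentation genes (6 tested), which take up the peptides, had medians of -0.07 in KO and -0.09 in WT mice for HSC minus MPP, and of 0.07 in HSC and -0.10 in MPP for KO minus WT. Of the ubiquitin genes only Uba6, an activating enzyme, was tested, and it stood at 0.20 in HSC and 0.48 in MPP for KO minus WT.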

How the data were processed

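The authors deposited log2 intensities per probe set. The submitters' processing notes name RMA for normalization and limma, without versions. RMA sets the probe values of all arrays to 1 distribution and compresses differences of weak transcripts, and 300 pg of RNA per sample was amplified with NuGEN kits per the labels' protocols, which adds noise. Detection calls were not used, and precision rests on 3 arrays per group.

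Of 22142 probe sets 19527 had 1 gene symbol. The highest-mean probe set of each gene was kept (19494 genes), and the lowest 25% by mean (under 4.96) were left out. The 4 group means were fitted in 1 limma model over 12 arrays (R 4.3.3, limma 3.58.1, statmod 1.5.0), with two-sided moderated tests, Benjamini-Hochberg adjustment over 14620 genes and a threshold of 0.05. For the mean of both populations, each mouse's arrays were averaged first. The fit was tested on simulated data. Replicates are 3 animals per genotype.

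Each HSC array pairs with the MPP array of its animal, known from the mouse number in the labels. Deviations correlated within mice with r of 0.0323 to 0.0905 over genes. An alternative fit, the mouse block, took account of the animal. For HSC against MPP it gave each mouse a term of its own, which leaves fewer degrees of freedom. For KO against WT and the interaction it used a consensus correlation of 0.0723 instead. Further alternatives were no filter, 50% left out, a second quantile normalization, median centring, averaged probe sets per gene, array weights, trended and robust moderation, a fit of only the compared arrays, and fits that left out each mouse or the HSC array of KO mouse 2. The members, roles, lists and alternatives were chosen with earlier results of these data known. In each comparison the text names members that passed, the 4 with the lowest p, the largest and smallest differences, and Psmb6 to Psmb10; others were named after their values were seen, to account for the members. Gene names and neighbours are from RefSeq (GRCm38.p6), whose coordinates are given only for the promoter sequences.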

Additional observations from a re-analysis of the deposited data

How the results depend on the processing

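In no alternative run did a subunit pass for KO against WT, in the interaction or in the mean of both populations. The members' median for KO against WT in HSC ran from -0.0405 (without mouse 64) to 0.16 when single mice were left out. For HSC against MPP in WT mice the number of members that passed, 1 in the main analysis, was 0 after a second quantile normalization, with only the arrays compared and with the mouse as a replicate block. It was 2 with median centring and 2 with array weights, where Psmb3 joined Psmc5 (adjusted p of Psmb3 0.0462 and 0.0389), and 0 to 1 without single mice. The 1 was Psmb3, without KO mouse 70. Its adjusted p ran from 0.0319 to 0.316 over the mice left out in turn. In KO mice the members' median was -0.0391 after the second quantile normalization. That in WT mice was -0.33 after the second quantile normalization and -0.44 to -0.29 without single mice. The adjusted p of Psmc5 was 0.0936, 0.123 and 0.123 in the first 3 of those settings. In KO mice 1 member, Psme2 (-1.20, adjusted p = 0.0482), passed when the HSC array of KO mouse 2 was left out, and 0 to 1 without single mice. The median of the interaction ran from 0.10 to 0.30. The cause of these shifts was not tested.

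Signs turned for some values that did not pass. Psmb10 in WT mice was -0.021 with median centring. Psmb6 in KO mice was 0.0626 after the second quantile normalization and 0.0594 when the HSC array of KO mouse 2 was left out, and Psmb7 there was -0.0482 with median centring, -0.11 with array weights and -0.28 without that array, where the interaction of Psmb10 was -0.0038. When single mice were left out, these values crossed 0 over the ranges given. For HSC minus MPP in KO mice they were Psma8 (-0.17 to 1.95), Psmb6 (-0.075 to 0.0019), Psmb7 (-0.33 to 0.31) and Psmb9 (-0.27 to 0.00067), and in WT mice Psmb10 (-0.0738 to 0.22). For KO minus WT they were Psmb8 in HSC (-0.0445 to 0.17), Psmb9 (-0.0827 to 0.20) and Psmb10 (-0.0916 to 0.23) in MPP, and Psmb7 (-0.0788 to 0.24) and Psmb8 (-0.11 to 0.0216) in the mean of both. The interaction of Psmb10 ran from -0.0458 to 0.25. With the lowest 50% of genes left out, 39 members remained. The mouse block changed no call other than that of Psmc5.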
